A study of Sus scrofa with 5 samples.

Results

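The miRNAs ssc-miR-34c, ssc-miR-34a and ssc-miR-202-5p (the prefix ssc-, for Sus scrofa, is left out below), known from male germ cells, gonads and the reproductive tract, were followed through exosomes of 5 pig body fluids. They were chosen by name, and all 3 names stand among the 411 mature miRNA names of each deposited table. The exosomes came from semen, serum, plasma, urine and bile, with 1 library per fluid and no treatment named, and the animals were of the Chinese pig breed Rongchang, aged 180 days after birth. Exosomes are small vesicles that cells release, and here they were collected with a commercial isolation reagent before the small RNA was sequenced. The number of animals behind a library, whether they were pooled, and whether the semen was freed of spermatozoa first are not stated in the labels.

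The miR-34 family is a group of miRNAs with the same seed, the short stretch near the 5′ end that pairs with target mRNAs, and the miR-449 miRNAs share that seed. In mammals miR-34a is made in many tissues and is induced by the tumour suppressor p53, while miR-34b and miR-34c come from a separate shared transcript that is strongly expressed in meiotic and postmeiotic male germ cells and in multiciliated cells, such as those of the efferent ducts. In mice, loss of the miR-34b/c and miR-449 loci together makes males infertile, with defects of spermatogenesis and of the cilia of the efferent ducts. miR-202 is a gonadal miRNA, enriched in testis and ovary of several vertebrates and, in the mouse testis, expressed in Sertoli cells from the time of sex determination and in spermatogonia.

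In the RefSeq annotation of assembly Sscrofa11.1, which is not the build of the files and was used for names only, MIR34C-1 is the neighbour of C9H11orf88 and LAYN, and MIR202 lies between UTF1 and ADAM8. The tables name an arm for miR-202 but none for miR-34a and miR-34c. No name of miR-34b, miR-449a, miR-449b or miR-449c was among the 411, so these relatives were not analysed here. How reads that match both miR-34a and miR-34c were assigned is not stated in the labels or headers, and the split of reads between these related miRNAs is therefore uncertain.

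The libraries held 2284926 listed miRNA counts in semen, 473168 in serum, 1153755 in plasma, 26522 in urine and 1673239 in bile. No table held a count from 1 to 9, so a value listed at 0 stands for at most 9 reads. To compare libraries, counts were scaled to CPM, counts per 1000000 listed miRNA counts, and a listed 0 was read as the level of 10 reads. That level was 21.1 CPM in serum, 8.67 CPM in plasma, 377 CPM in urine and 5.98 CPM in bile. Each fluid was measured once, so differences between fluids could not be set against replicates or tested, and the 95% intervals given below cover counting error only.

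All 3 miRNAs were listed in semen exosomes, and miR-34a was the single one of them listed in another fluid, bile. They held 718 counts in semen, 0.0314% of its miRNA counts (0.0292 to 0.0338), and 84.1% of these counts were miR-34c. For comparison, of the 237 miRNAs listed in at least 1 fluid, 73.4% were listed in semen, 75.9% in serum, 67.9% in plasma, 35.4% in urine and 75.5% in bile. Listing in semen alone, shared by miR-34c and miR-202-5p, held for 10 of the 237, or 4.22%. Listing in semen and bile alone, the pattern of miR-34a, held for 12, or 5.06%.

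**Figure D1:**
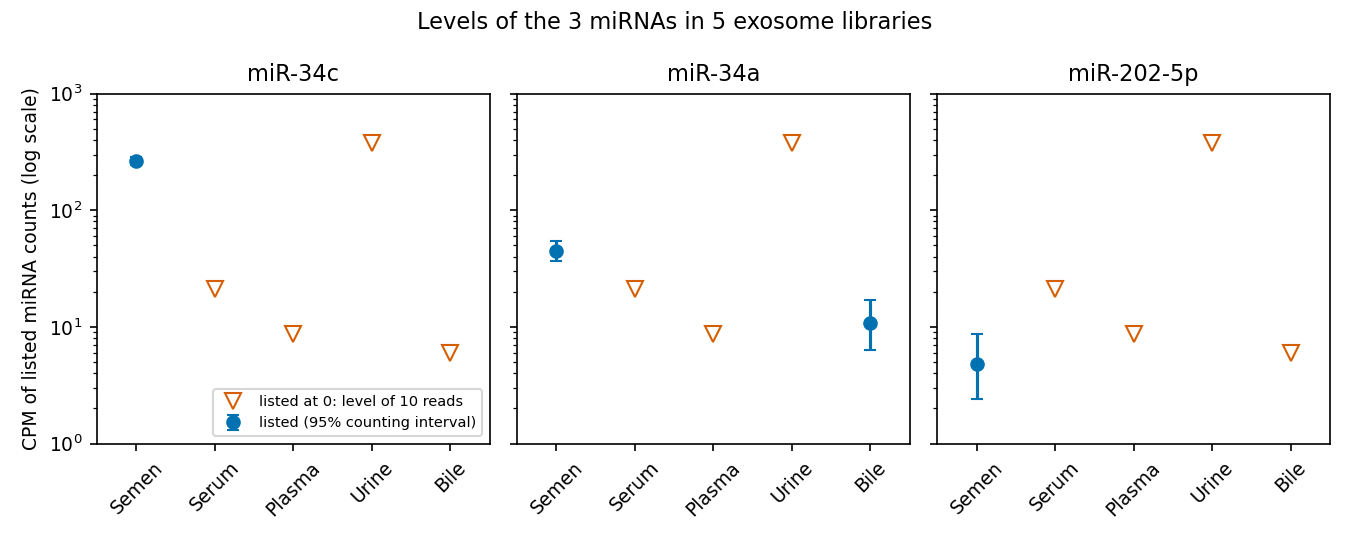
Level of miR-34c, miR-34a and miR-202-5p in each exosome library, in CPM of the listed miRNA counts on a log scale. Filled circles are listed counts with 95% counting intervals and open triangles mark the level of 10 reads where the table lists 0. miR-34c in semen, at 264 CPM, lies above the triangles of serum, plasma and bile and below that of urine, and miR-202-5p in semen, at 4.81 CPM, lies below all 4.

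miR-34c, known from male germ cells and multiciliated cells, had 604 counts in semen, and was listed at 0 in serum, plasma, urine and bile. The semen count came to 264 CPM (244 to 286), or 55.9 RPM in the authors' own scaling, which divides by a larger library total. It ranked 71 of 174 listed miRNAs there and had the highest count of the 10 miRNAs listed in semen alone. It was followed in that set by miR-2483 with 169 counts and miR-362 with 101, and the other 7 had from 11 to 56 counts.

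Against the level of 10 reads, miR-34c was at least 44.2-fold higher in semen than in bile (lower end of the counting interval 23.9). It was at least 30.5-fold higher than in plasma (lower end 16.5) and at least 12.5-fold higher than in serum (lower end 6.75). With other scalings of the libraries the bounds were 40.6 to 63.7 for bile, 5.40 to 40.3 for plasma and 21.7 to 59.2 for serum, so the direction held against these 3 fluids. The lowest plasma bound came with edgeR's TMM scaling, where its lower end was 2.91. Of the 237 miRNAs, 13.9% had at least 100 counts in semen and 4 times the CPM of bile, 30.0% did so against plasma and 7.59% against serum.

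For urine the level of 10 reads, 377 CPM, was above the semen level of miR-34c, so the CPM gave no direction. At the semen share, 7.01 counts of miR-34c would be expected in the urine library (6.46 to 7.59), which is under the lowest count that the tables list. A library of 37830 miRNA counts would be needed to reach 10. On the authors' RPM, where the urine miRNAs are set against a larger library total whose reads are not specified, miR-34c was at least 60.4-fold higher in semen (lower end 32.6). By that scaling 44.3% of the 237 miRNAs were 4 or more times higher in semen than in urine at 100 or more semen counts, against 1.69% by CPM. The listed miRNAs took 0.246% of the recovered urine library total, against 21.2% in semen. The comparison of semen with urine thus turned on the denominator.

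**Figure D2:**
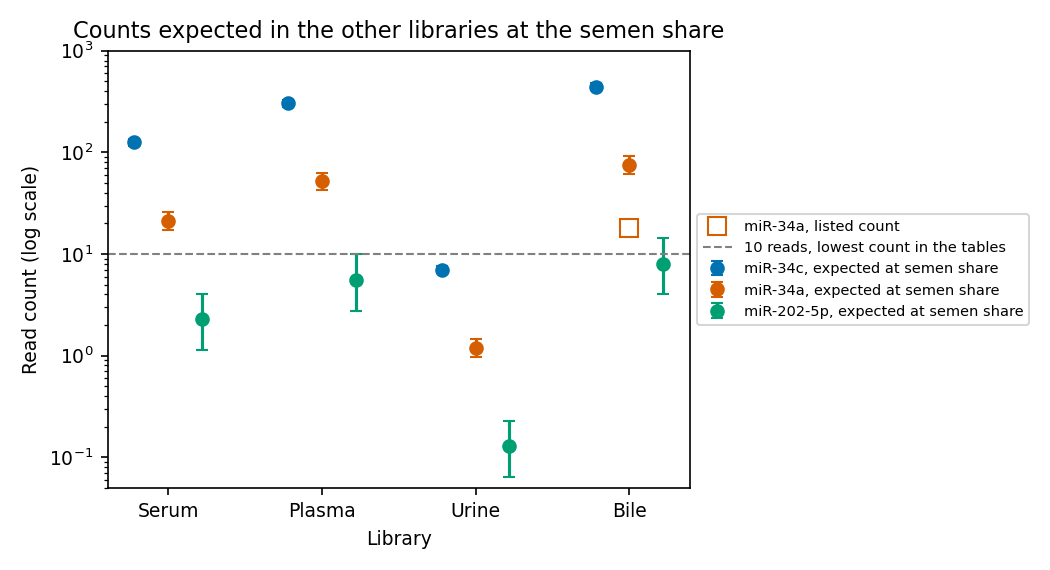
Read counts of the 3 miRNAs expected in the serum, plasma, urine and bile libraries if each held the semen share, on a log scale, with bars for the 95% counting interval of the semen count. The dashed line marks 10 reads, the lowest count in the tables, and the open square is the count of 18 listed for miR-34a in bile, under the expected 75.4. All values for urine, and the central values of miR-202-5p in every library, lie under the line.

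By a rule of at least 100 semen counts and 4 times the CPM of every other fluid, 2 of 237 miRNAs passed (0.844%). miR-34c, miR-34a and miR-202-5p could not pass it at their semen levels of 264, 45.1 and 4.81 CPM. Their listed 0 in urine was read as 377 CPM, and miR-202-5p, with 11 counts, was also under the count minimum. Their failure by this rule therefore says nothing about their level in urine. With the urine library left out, 8 passed (3.38%), miR-34c among them. On the authors' RPM 19 passed (8.02%), and both miR-34c and miR-34a were in range, at 40.3 times or more and at 5.59 times the next fluid.

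miR-34a, the broadly expressed p53-induced member, had 103 counts in semen and 18 in bile, and was listed at 0 in serum, plasma and urine. These counts came to 45.1 CPM (36.8 to 54.7) in semen and 10.8 CPM (6.38 to 17.0) in bile, or 9.54 and 1.71 RPM. It ranked 110 in semen and 156 in bile. The 2 counting intervals did not overlap, and the semen level was 4.19 times that of bile (2.52 to 7.35). Under the other scalings this ratio was 3.84 to 6.03.

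The semen to bile ratio of miR-34a was set beside those of the other miRNAs. Over the 145 miRNAs listed in both libraries the median ratio was 1.003, and miR-34a stood at place 29 from the highest. Among all 237 tested, 33 miRNAs, or 13.9%, had at least 100 counts in semen and at least 4 times the CPM of bile. Both miR-34c and miR-34a were among them. miR-34a passed narrowly, with 103 counts and a ratio of 4.19, and with TMM its ratio of 3.84 was under the 4-fold limit.

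Against the other fluids, miR-34a had less room. In serum 21.3 counts would be expected at the semen share (17.4 to 25.9) and fewer than 10 were counted, so its semen level was at least 2.13-fold higher (lower end 1.11). In plasma 52.0 would be expected, and the bound was 5.20-fold (lower end 2.72), but with TMM or DESeq2 size factors the plasma limit came level with semen, at ratios of 0.92 and 0.95, and no direction remained. In urine 1.20 counts would be expected, so the listed 0 there does not separate urine from semen in CPM, while on the authors' RPM the bound was 10.3-fold. The bile level of 10.8 CPM was below the limits of serum and urine, and its interval spanned the limit of plasma, so bile could not be ordered against these 3 fluids.

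The proportion of miR-34c to miR-34a within a library does not depend on how libraries are scaled. In semen miR-34c had 5.86 times the counts of miR-34a (4.75 to 7.30), and took 85.4% of the 707 counts of the pair (82.6 to 88.0). In bile miR-34a had 18 counts and miR-34c fewer than 10, so that miR-34c had at most 0.56 times the counts of miR-34a with 10 reads assumed for it (0.23 to 1.27). At the semen proportion 106 counts of miR-34c would be expected beside the 18 of miR-34a in bile. The intervals of the semen ratio and of the bile limit did not overlap. The order of the pair was thus miR-34c above miR-34a in semen, and in bile miR-34a was the one listed. Serum, plasma and urine gave no ratio, since both were listed at 0.

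**Figure D3:**
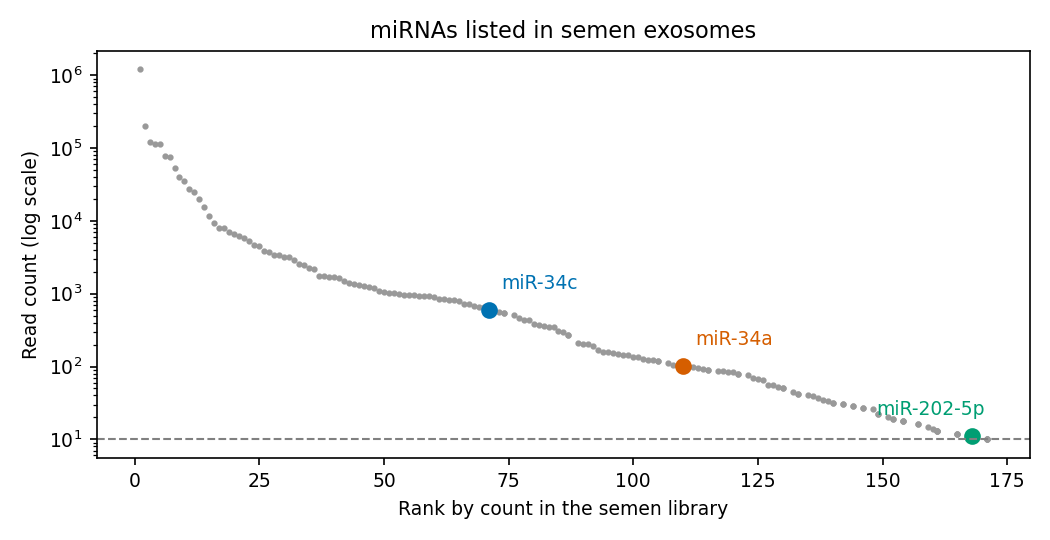
The 174 miRNAs listed in semen exosomes, by rank (x axis) and read count (y axis, log scale), with the 3 miRNAs marked and a dashed line at 10 reads. miR-34c stands at rank 71 with 604 counts and miR-34a at rank 110 with 103, while miR-202-5p stands at the bottom of the list with 11.

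miR-202-5p, the gonadal miRNA, had 11 counts in semen and was listed at 0 in serum, plasma, urine and bile. This was 4.81 CPM (2.40 to 8.61), or 1.02 RPM, at rank 168, a place shared by the 3 miRNAs with 11 counts. The count is 1 above the lowest that the tables hold, and 10 of the 174 listed miRNAs of semen had 10 to 12 counts. Its other arm, miR-202-3p, was listed at 0 in all 5 fluids. Within semen, miR-34c had 54.9 times the counts of miR-202-5p (30.5 to 111) and miR-34a 9.36 times (5.02 to 19.3).

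At the semen share of miR-202-5p the other libraries would hold 2.28 counts in serum, 5.55 in plasma, 0.13 in urine and 8.06 in bile. All are under 10, and 2077206 miRNA counts would be needed to reach it, more than the serum, plasma, urine or bile library held. A level of miR-202-5p lower than that of semen was therefore not detectable in any other fluid at this depth. Semen, the one fluid that listed it, had the largest miRNA total. The listed zeros bound the other fluids only from above, at 5.98 CPM in bile, 8.67 in plasma, 21.1 in serum and 377 in urine. The semen level was 4.81 CPM. On the authors' RPM 7.34 to 10.99 counts would be expected in the other libraries, around the same limit.

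Profiles over the fluids were compared by the share of a miRNA's summed CPM that falls in each fluid, with a listed 0 taken as 0 and the distance being the share that would have to be moved between fluids to turn one profile into the other. Over 5 libraries that share a protocol this describes listing more than level. Nearest to miR-34c among 181 miRNAs with at least 100 counts were miR-2483 and miR-362, at a distance of 0, since they too were listed in semen alone. Next came miR-676-3p with 3168 counts in semen, 24 in serum and 34 in bile (distance 0.049), miR-135 with 6200 in semen and 370 in bile (0.075), and miR-10a-3p with 907 in semen, 13 in serum and 16 in bile (0.085). For miR-202-5p the nearest were miR-34c, miR-2483 and miR-362 at 0, then miR-676-3p and miR-135.

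miR-34a had 80.7% of its profile in semen. Its nearest was miR-345-5p with 96 counts in semen and 12 in bile (distance 0.047), followed by miR-29b with 355 and 108 (0.10) and miR-135 (0.12). miR-10a-3p (0.17) and miR-676-3p (0.18) came next. On the authors' RPM the order changed, with miR-429 nearest to miR-34a (0.024), then miR-345-5p (0.038) and miR-374a-3p (0.040).

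**Figure D4:**
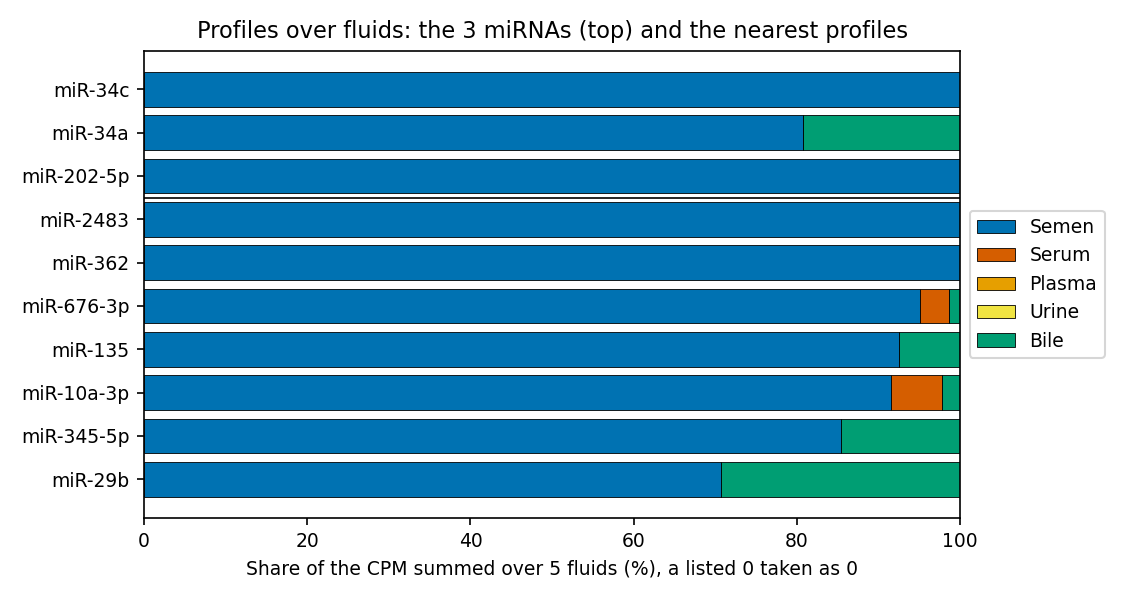
Share of each miRNA's CPM, summed over the 5 fluids, that falls in each fluid, with a listed 0 taken as 0. The 3 miRNAs stand above the line and their nearest profiles below it: miR-34c, miR-202-5p, miR-2483 and miR-362 lie wholly in semen, and miR-34a has 80.7% in semen and the rest in bile.

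Lists of miRNAs of related cell types and pathways were set beside these members. A miRNA is called highest in semen here where its level there was above that of every other fluid with a listed 0 read as 10 counts. Of 237 miRNAs, 12 were so by CPM (5.06%), 23 with TMM and 23 with DESeq2 size factors (9.7% each), 27 with the sum without the most abundant miRNA (11.4%) and 81 on the authors' RPM (34.2%). The median log2 ratio of semen to the mean of the other fluids, with 1 CPM added and a listed 0 taken as 0, was -1.42 over the 237. It was -2.99 with every listed 0 read as 10 counts and 0.22 on the authors' RPM, so medians of short lists depend on how zeros are read and on the scaling. Some of the listed names share sequence or arms, and no list was tested.

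Of the 8 names on the list of late male germ cell miRNAs, 4 were in the table, miR-34c among them. All 4 were listed in semen, as were 73.4% of the 237 miRNAs. In serum 3 of the 4 were listed, in plasma 2, in urine 1 and in bile 2. miR-191, a widely expressed miRNA, had 11491 counts in semen, 3095 in serum, 396 in plasma, 93 in urine and 3869 in bile, and its CPM was 5029 in semen, below 6541 in serum. With the 4 other scalings its level was higher in semen than in every other fluid. miR-34c followed, then miR-184, a miRNA of testis and of epithelia in mammals, with 128 counts in semen, 17 in serum and 22 in bile. miR-18a had 11 counts in semen. Of the 4, 0 were highest in semen by CPM, since the 56.0 CPM of miR-184 and the level of miR-34c lay under the urine limit. The number was 2 with TMM, DESeq2 size factors and the sum without the most abundant miRNA, namely miR-191 and miR-34c, and 3 on the authors' RPM. The median log2 ratio was 1.38 by CPM, or -0.15 with listed zeros read as 10 counts.

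Of the gonadal somatic cell list, 9 names were in the table and 5 were listed anywhere, miR-202-5p itself among them. The 2 most abundant in semen were arms of miR-140, a miRNA of cartilage that is also expressed in the fetal mouse testis: miR-140-3p with 1055 counts in semen and 38451 in serum, and miR-140-5p with 119 in semen, 87 in serum and 12 in bile. None of the 5 was highest in semen under CPM, TMM, DESeq2 size factors or the sum without the most abundant miRNA. On the authors' RPM 2 were, miR-140-5p and miR-132. miR-132 had 69 counts in semen, 13 in serum and 24 in bile. miR-214 went the other way, listed at 0 in semen, with 96 counts in serum and 153 in bile. miR-132 and miR-214 were named after their values were seen. The median log2 ratio was 0.12, or -4.42 with listed zeros read as 10 counts.

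Of 9 listed miRNAs of the spermatogonial list, 1 was highest in semen by CPM. It was miR-21, with 198507 counts or 86877 CPM in semen beside 85605 CPM in bile, and it was higher in bile with TMM. Under the 5 scalings 0 to 4 of the 9 were highest in semen, the 0 with TMM and the 4 on the authors' RPM. miR-221-3p, the second most abundant of the list in semen, had 994 CPM in semen and 1088 CPM in serum. The list's median log2 ratio was -2.56.

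Of 6 listed miRNAs of the reproductive tract epithelium list, 2 were highest in semen by CPM, 4 on the authors' RPM and 3 under each of the other scalings. The share over all miRNAs rose with the scaling as well, as given above. miR-10a-5p, encoded within a HOX cluster, had 53277 CPM in semen and 46339 in urine. miR-10b, of another HOX cluster, had 49776 CPM in semen and 120051 in urine. The counts of miR-34c were thus small beside those of the HOX cluster miRNAs in the same library, which had 121735 for miR-10a-5p and 113734 for miR-10b. The list's median log2 ratio was 0.94.

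The p53-linked list had 13 listed members, of which 0 were highest in semen by CPM and 2, miR-34a and miR-34c, on the authors' RPM. Under the other 3 scalings miR-34c was the 1 member highest in semen, while miR-34a lay under the limits of urine and, with TMM and DESeq2 size factors, of plasma. miR-192, the most abundant of this list in semen after miR-34c, had 269 counts there, 6175 in serum, 4379 in plasma, 371 in urine and 229971 in bile, where its level was 137441 CPM. The list's median log2 ratio was -5.01, against -1.42 over all miRNAs. miR-34a had 18 counts in bile. Whether p53 bears on the bile level of miR-34a or of miR-192 was not tested.

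Markers of blood and liver were low in the semen library. Of the 3 red blood cell miRNAs, miR-451 and miR-144 were listed at 0 in semen and miR-486 had 12 counts, so the list summed to 5.25 CPM in semen, against 102146 in serum, 5828 in plasma, 4675 in urine and 4173 in bile. Of 5 listed leukocyte miRNAs, miR-342 was the single one listed in semen, with 13 counts. Over all 237 miRNAs, 73.4% were listed in semen. The leukocyte sum was 5.69 CPM in semen, 10231 in serum, 289 in plasma and 305 in bile. All 5 were listed at 0 in urine, where 35.4% of the 237 were listed and 10 reads came to 377 CPM. The liver miRNA miR-122 had 32 counts in semen and 91481 in bile, and miR-885-5p had 0 in semen and 18 in bile. Of the kidney list, miR-10a-5p and miR-30a-5p led in semen, and the list summed to 62691 CPM there and 280371 in urine. Most of the semen sum, 53277 CPM, was miR-10a-5p, which is also in the reproductive tract epithelium list. By CPM 2 of the 5 listed kidney miRNAs were highest in semen, miR-10a-5p and miR-10a-3p. The others were higher in urine. miR-30a-5p had 8632 CPM in semen and 220760 in urine, and miR-204 had 68.3 and 4713. The kidney list's median log2 ratio was -2.82 by CPM, against -1.42 over all miRNAs. On the authors' RPM these medians were 0.93 and 0.22. The part of other cell types in the counts of miR-34a, miR-34c and miR-202-5p was not tested. In bulk exosome RNA, fewer vesicles from a cell type and less of a miRNA per vesicle cannot be told apart.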

How the data were processed

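Small RNA of exosomes from 5 pig body fluids was sequenced in 1 library per fluid. Per the labels' protocols, RNA was extracted with Trizol, size-selected on a polyacrylamide gel, ligated to adaptors, reverse transcribed and amplified, with no molecular identifiers named. Per the submitters' processing notes, bcl2fastq 2.17 and genome build Sscrofa10.2 were used. Which aligner and miRNA annotation were used, and how ambiguous reads were counted, is not stated. Per the file headers, the authors deposited a count per mature miRNA name and a normalized value. Dividing counts by it gave 1 constant per library within 0.1%, so it is read as RPM that the authors computed against a larger library total.

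From the deposited counts, CPM, shares with Clopper-Pearson intervals and ratios with exact conditional binomial intervals were computed (scipy 1.17.1). A listed 0 was read as 10 counts in ratios, because the lowest deposited count was 10. The limit for a difference was 4-fold at 100 or more semen counts. Alternative scalings were TMM (edgeR 4.0.16), DESeq2 1.42.0 size factors, the sum without each library's most abundant miRNA, and the authors' RPM. The 4-fold rule and the intervals were tested on simulated data. Named are the 3 miRNAs, the 5 nearest profiles of each and the 2 most abundant members of each list in semen; a shared-seed search was not made. Other names were chosen after their values were seen. Ties in distance were ordered by count. The members and lists were chosen with earlier results of these data known.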

Additional observations from a re-analysis of the deposited data

How the results depend on the processing

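Ratios to the highest of the other 4 fluids were set by the urine limit, on the log2 scale, at -0.51 for miR-34c, -3.06 for miR-34a and -6.29 for miR-202-5p, and are limits, not measured differences. TMM, DESeq2 size factors and the sum without the most abundant miRNA kept them within their counting intervals. On the authors' RPM they moved to 5.33, 2.48 and -0.45 (here and below in the order miR-34c, miR-34a, miR-202-5p). There the highest other fluid was no longer urine. It was the plasma limit for miR-34c and miR-202-5p, and the listed bile level for miR-34a, whose ratio is thus measured. With a listed 0 read as 3 counts they moved to 1.22, -1.33 and -4.55, still against urine. Without the urine library they moved to 3.64, 1.09 and -2.13, each against the serum limit. All 3 miRNAs were listed in semen, but at the depth of the urine library 0 would be, and the 1 listed in bile would become 0 there and at a minimum of 100 counts. The number of miRNAs 4-fold higher in semen than in every other fluid, 2, became 8 without the urine library and 19 on the authors' RPM. Against single fluids, the bounds for miR-34c moved beyond the counting interval for plasma, to a log2 ratio of 2.43 with TMM and 2.48 with DESeq2 size factors from 4.93, and for serum on the authors' RPM, to 5.89 from 3.64, and the ratio of miR-34a to bile stayed within it. These single-fluid alternatives were added after the data were seen. The causes were not tested. No paired analysis was possible because each fluid has 1 library. The low miRNA total of the urine library limits the CPM comparisons with urine, and the low semen count limits all comparisons of miR-202-5p.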
